A study of Mus musculus with 24 samples.

Results

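The comparison described here is that of pleural effusion cells from mice given an antibody against PD-L1 with effusion cells from mice given phosphate-buffered saline (PBS), 3 RNA-seq libraries on each side. Genes entered it if they lay on an autosome and reached an FPKM of at least 1 in 3 or more of the 6 libraries. FPKM is the number of fragments on a gene scaled by gene length and by a factor for each library's depth. In the deposited values this factor was not in strict proportion to the total of recovered reads. Of 54505 genes in the deposited table, 12199 met this rule, 10474 of them protein coding, and 12192 could be tested. All mice were C57BL/6 and carried malignant pleural effusions of Lewis lung carcinoma (LLC), a mouse lung cancer line. On day 11 the 2 groups received either PBS or 30 µg of the anti-PD-L1 antibody 10F.9G2 by injection into the pleural space, and on day 13 the effusion was drawn and its red cells were lysed. The RNA therefore came from all remaining cells of the fluid, tumor and host together. The same study holds 2 further fluid groups, given LNP-CDN (1 µg of cGAMP, an agonist of STING) alone or with the antibody, and the pleural tumors of all 4 treatments.

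PD-L1, encoded by Cd274, is a surface ligand that restrains T cells through the receptor PD-1, encoded by Pdcd1, and antibodies against it are used to lift that restraint. Interferon-gamma, released by activated T cells and NK cells, induces PD-L1 itself together with guanylate-binding proteins, immunity-related GTPases and the chemokines Cxcl9 and Cxcl10. A malignant pleural effusion is a mixed fluid of macrophages, neutrophils, lymphocytes, dendritic cells, mesothelial cells and tumor cells, so that a change in its RNA can be a change in which cells are there. In such bulk samples fewer cells of a type and less RNA per cell cannot be told apart.

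The 6 libraries held between 16527123 and 21781316 reads recovered from the FPKM values, and mitochondrial genes took 0.753 to 1.05% of reads with the antibody and 0.839 to 0.903% with PBS. The labels give 3 mice per treatment but not which mouse gave which library, so the p-values measure the spread between these samples. The markers of sex separated the groups. The Y-linked gene Ddx3y stood at 22.8, 23.6 and 21.6 FPKM with the antibody, while no PBS library exceeded 0.0253 and the X-linked Xist at 8.18, 9.22 and 20.0 against 61.5, 71.7 and 53.5. Treatment and sex cannot be told apart in any of the anti-PD-L1 minus PBS differences in fluid. The mixture matched its label as far as markers show. The 15 macrophage markers summed to between 5235 and 5835 FPKM with PBS and between 4282 and 10842 with the antibody. Mesothelial markers summed to 32.7 to 35.9 and 30.4 to 44.2, epithelial markers to 39.7 to 46.8 and 47.1 to 80.03, and autosomal erythroid markers to at most 8.70 in any library.

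Of the 12192 genes tested, 1735 differed between anti-PD-L1 and PBS (14.2%; limma on log2(FPKM + 1), Benjamini-Hochberg adjusted p under 0.05), 731 of them higher (6.00%) and 1004 lower (8.23%) with the antibody. Counts of called list members below stand beside these shares. Counts of members without overlap stand beside 18.2% of all genes tested that were separated upward and 16.5% downward. The lower genes moved further. The median log2 difference was 0.45 among the genes that rose and -0.70 among those that fell, against 0.03 over all genes tested. Of the 1004 genes that fell, 114 were under 1 FPKM in every antibody library and passed the FPKM filter through PBS alone. Of the 731 that rose, 15 passed it through the antibody group alone. At least a 2-fold change on this scale was seen for 46 genes that rose and 295 that fell, and at least a 4-fold change for 2 that rose, Gbp2b and Iigp1, and 37 that fell. When libraries were scaled to equal total reads, the split was 526 higher and 1260 lower. The count fell to 771 without PBS replicate 1 and to 777 without PBS replicate 3. Without anti-PD-L1 replicate 3 it was 974 higher and 844 lower, the reverse of the order with all libraries. In all, 638 of the 1735 genes passed the threshold whichever of the 6 libraries was left out, 177 higher and 461 lower.

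**Figure D1:**
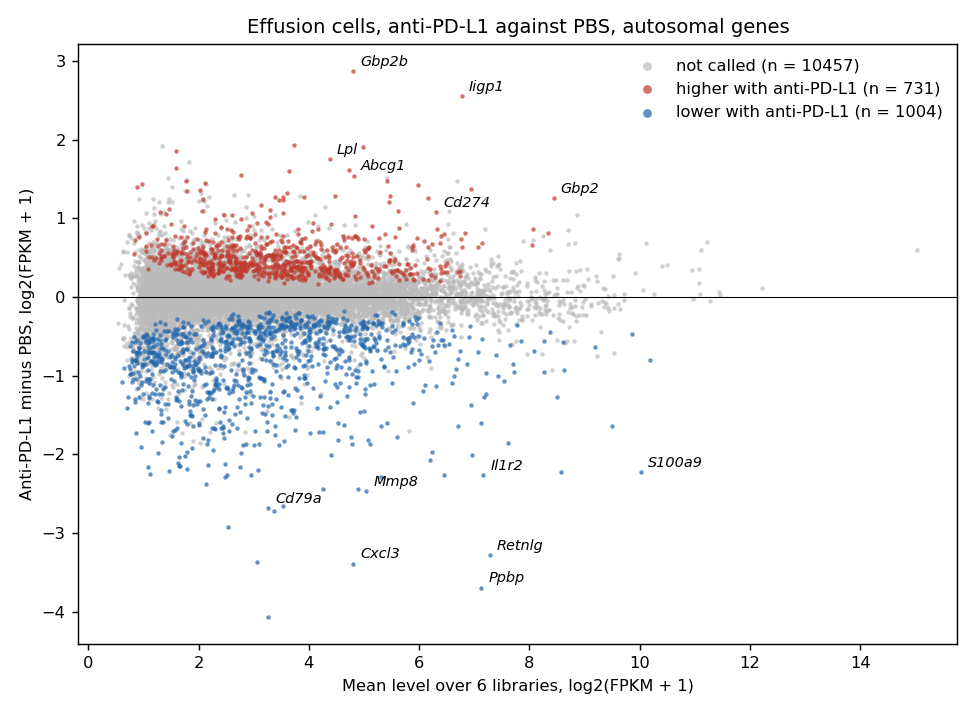
Each point is 1 of the 12192 autosomal genes tested, with its mean level over the 6 effusion libraries on the horizontal axis and the anti-PD-L1 minus PBS difference on the vertical axis, both in log2(FPKM + 1). Red marks the 731 genes that rose, blue the 1004 that fell; the genes that fell reach further from 0, with Ppbp, Cxcl3 and Retnlg below -3.

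The effusion cells of antibody-treated mice carried more RNA of interferon-gamma-induced genes. Of 28 such genes listed, 26 were tested, 15 rose and 0 fell, and their median log2 difference was 1.03 against 0.03 over all genes. The 15 were 6 with the 6 compared libraries alone. The groups did not overlap for 20 of the 26, all with higher values under the antibody, where 18.2% of all genes tested were separated in this direction. Among the guanylate-binding proteins, GTPases that attack pathogen vacuoles, Gbp2b, Gbp2, Gbp3, Gbp4, Gbp5, Gbp6 and Gbp7 rose, while Gbp8 and Gbp9 differed by 1.15 and 0.51 without passing the test. Gbp4 and Gbp6 lost their calls without PBS replicate 1 or 3, Gbp5 without PBS replicate 3, and Gbp7 in those fits and without anti-PD-L1 replicate 1 or 2 (highest adjusted p 0.145). Many of these genes are close paralogs, as are Tgtp1 and Tgtp2, and reads shared between such copies could have been split between them by the counting.

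Gbp2b (ENSMUSG00000040264, GRCm38 chr3:142594847-142619179) read 8.69, 11.3 and 8.32 FPKM in PBS replicates 1 to 3 and 241, 77.6 and 21.9 in anti-PD-L1 replicates 1 to 3. All antibody libraries lay above all PBS libraries, and replicate 1 of the antibody group was far above the other two. Its log2 difference was 2.87 ± 0.68 (SE; limma adjusted p = 0.0207), and the call was lost without PBS replicate 1, PBS replicate 3 or anti-PD-L1 replicate 2 (highest adjusted p 0.0709). Iigp1 (chr18:60376029-60392627), an immunity-related GTPase, stood at 54.6, 76.7 and 20.2 FPKM with PBS and at 411, 221 and 201.03 with the antibody. It rose by 2.55 ± 0.41 (limma adjusted p = 0.00444) and remained past the threshold whichever library was left out. PBS replicate 3 was the lowest library for Iigp1 and also for Gbp3, Gbp4 and Tgtp2, and anti-PD-L1 replicate 1 the highest.

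Gbp3 (chr3:142560026-142573209) read 39.6, 47.2 and 27.8 FPKM with PBS and 147, 90.9 and 79.7 with the antibody, a log2 difference of 1.43 ± 0.23 (limma adjusted p = 0.00459). For Tgtp2, a T-cell-specific GTPase, the values were 28.6, 32.95 and 15.8 against 97.3, 57.4 and 62.7, a rise of 1.48 ± 0.26 (limma adjusted p = 0.00588). For both genes the groups did not overlap. The chemokines Cxcl9 and Cxcl10, which draw T cells carrying Cxcr3, rose from low levels. Cxcl9 read 0.829, 0.932 and 0.888 FPKM with PBS and 5.97, 1.59 and 2.81 with the antibody (1.12 ± 0.32, limma adjusted p = 0.0408), and Cxcl10 read 1.75, 2.67 and 1.32 against 9.34, 3.89 and 3.46 (1.09 ± 0.31, limma adjusted p = 0.0400). Cxcl9 was under 1 FPKM in all PBS libraries and passed the FPKM filter through the antibody group alone, as did 59 of the genes tested, so its rise is a description. It lost its call in 5 of the 6 fits with 1 library left out (highest adjusted p 0.114), all but the one without anti-PD-L1 replicate 2, and Cxcl10 without PBS replicate 1, PBS replicate 3 or anti-PD-L1 replicate 1 (highest 0.132). The Ifng gene was too low to be tested, at 0.152, 0.202 and 0.141 FPKM with PBS and 0.782, 0.260 and 0.113 with the antibody, so that only replicate 1 of the antibody group stood clear of PBS. Irf1, a transcription factor of the pathway, differed by 0.48 ± 0.19 and did not pass the test (limma adjusted p = 0.112). The count of 15 was 8 without PBS replicate 1 and 6 without PBS replicate 3.

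The promoters of these genes were examined because the members moved together. RefSeq windows (build GRCm38.p6) cover 250 bases before to 50 after a gene's start. They were searched on both strands for the interferon-stimulated response element, written as 2 GAAA blocks with any 2 bases between them, bound by IRF factors, and for the gamma-activated site TTCNNNGAA. Of the 15 genes that rose, 11 had a window, and 9 of these held the response element, against 3.99% of all 27025 genes with a window. The gamma-activated site was in 6 of the 11, against 9.55% of all genes. The list was made of interferon-gamma-induced genes, so its share against all genes describes the list and not the antibody's effect. Of 21 type I interferon genes that did not rise and had a window, 15 held the response element and 2 the gamma-activated site; of 6 interferon-gamma genes that did not rise, 3 held each. The 4 windows shown are those with the smallest p among interferon-gamma genes that rose and held either motif, leaving out the chromosome of Iigp1. Motifs are in capitals.
Gbp3 promoter, chr3:142559794-142560093, plus strand: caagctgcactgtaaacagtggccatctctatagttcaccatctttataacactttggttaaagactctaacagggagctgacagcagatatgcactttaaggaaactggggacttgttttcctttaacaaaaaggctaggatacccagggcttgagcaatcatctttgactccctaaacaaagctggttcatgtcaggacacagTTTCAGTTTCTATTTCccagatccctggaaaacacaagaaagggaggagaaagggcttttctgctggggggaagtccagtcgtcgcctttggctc
Tgtp2 promoter, chr11:49064163-49064462, minus strand: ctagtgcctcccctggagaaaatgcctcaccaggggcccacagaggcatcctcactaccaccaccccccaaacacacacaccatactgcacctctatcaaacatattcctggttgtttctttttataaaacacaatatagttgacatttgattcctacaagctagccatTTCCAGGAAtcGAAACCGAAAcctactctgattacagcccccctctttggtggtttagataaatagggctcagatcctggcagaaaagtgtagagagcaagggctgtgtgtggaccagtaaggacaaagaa
Serpina3f promoter, chr12:104214294-104214593, plus strand: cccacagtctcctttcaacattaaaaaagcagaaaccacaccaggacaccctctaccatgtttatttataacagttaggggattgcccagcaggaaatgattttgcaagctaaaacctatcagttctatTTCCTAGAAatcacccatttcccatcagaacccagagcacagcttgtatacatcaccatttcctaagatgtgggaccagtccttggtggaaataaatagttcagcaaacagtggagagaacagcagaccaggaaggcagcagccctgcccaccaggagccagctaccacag
Gbp2 promoter, chr3:142620413-142620712, plus strand: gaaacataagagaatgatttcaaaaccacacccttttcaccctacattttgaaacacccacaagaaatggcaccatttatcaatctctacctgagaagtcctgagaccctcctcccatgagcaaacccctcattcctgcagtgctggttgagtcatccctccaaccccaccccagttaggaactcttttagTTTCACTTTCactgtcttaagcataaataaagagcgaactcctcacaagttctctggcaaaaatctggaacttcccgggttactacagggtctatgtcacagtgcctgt
In Gbp3 the element lies in 2 overlapping copies on the opposite strand, read as TTTC blocks, and in Tgtp2 a gamma-activated site precedes a response element within 2 bases. Gbp2, read at 242, 299 and 154 FPKM with PBS and 667, 472 and 485 with the antibody, rose by 1.26 ± 0.26 (limma adjusted p = 0.0122). Serpina3f, a serine protease inhibitor, read 2.56, 2.68 and 2.21 against 8.49, 5.18 and 4.62 and rose by 0.99 ± 0.21 (limma adjusted p = 0.0117).

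Of 34 genes of the type I interferon response, 32 were tested, 2 rose and 1 fell, with a median of 0.11, where 6.00% of all genes tested rose and 8.23% fell; 1 rose without any 1 of the PBS libraries and 5 rose without anti-PD-L1 replicate 3. Ifit2, an antiviral RNA-binding protein, read 6.18, 6.39 and 5.80 FPKM with PBS and 50.6, 13.3 and 12.7 with the antibody, a rise of 1.603 ± 0.42 (limma adjusted p = 0.0308) that was lost when any PBS library was left out (highest adjusted p 0.0912). Cmpk2, a mitochondrial nucleotide kinase, rose by 1.10 ± 0.20 (limma adjusted p = 0.00743), and Trim30d fell by 0.59 ± 0.17 on the log2 scale (limma adjusted p = 0.0409), a call lost in 5 of the 6 fits with 1 library left out, all but that without anti-PD-L1 replicate 1 (highest adjusted p 0.123). Of 20 MHC class I and peptide-loading genes, Tapbpl rose and H2-Q6 fell, with a median of 0.15. Tapbpl lost its call in all fits but that without anti-PD-L1 replicate 3, and H2-Q6 without PBS replicate 1 or 3, while 8 class I genes rose when anti-PD-L1 replicate 3 was left out. Of 10 MHC class II genes, 4 fell and 0 rose, with a median of -0.82, and 8 fell without anti-PD-L1 replicate 1. The 4 were H2-DMb2, H2-Oa, H2-Ob and H2-Eb2, of which H2-Oa and H2-Ob form H2-O, a modulator of peptide loading found mainly in B cells. H2-DMb2 read 19.2, 16.6 and 25.2 FPKM with PBS and 4.57, 3.08 and 7.30 with the antibody, without overlap, and fell by 1.88 ± 0.26 on the log2 scale (limma adjusted p = 0.00234). The class II chains H2-Aa and H2-Ab1 did not pass the test and their groups overlapped, with H2-Aa at 313, 288 and 353 against 382, 146 and 126 FPKM.

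The antibody's own target was higher in treated effusions. Cd274 (chr19:29367455-29388095) read 53.3, 67.4 and 43.4 FPKM with PBS and 183, 96.8 and 84.9 with the antibody. The 3 antibody libraries lay above the 3 PBS libraries, by a log2 difference of 1.08 ± 0.27 (limma adjusted p = 0.0240). The Cd274 call was lost without PBS replicate 1 or 3 (highest adjusted p 0.0932) and with the 6 compared libraries alone. Of 21 genes in the checkpoint and costimulation list, 19 were tested, Cd274 was the 1 that rose, and 9 fell, with a median of -0.54; 4 fell without PBS replicate 1, 5 without PBS replicate 3 and 3 with the 6 compared libraries alone. In all, 5 of the 19 differences were above 0. Pdcd1lg2, the second ligand of PD-1, read 3.04, 2.86 and 4.00 FPKM against 1.58, 2.21 and 1.37 and fell by 0.66 ± 0.18 on the log2 scale (limma adjusted p = 0.0360), a call lost in all fits with 1 library left out except that without anti-PD-L1 replicate 2. Cd80, a costimulatory ligand that also binds PD-L1, read 13.4, 11.5 and 16.6 against 4.39, 8.74 and 7.44 and fell by 0.94 ± 0.19 (limma adjusted p = 0.0107). Btla, an inhibitory receptor of B and T cells, read 14.2, 11.97 and 15.0 against 3.17, 2.92 and 4.63 and fell by 1.70 ± 0.31 (limma adjusted p = 0.00739). Icosl, the ligand of the costimulatory receptor ICOS, fell by 1.01 ± 0.18 (limma adjusted p = 0.00629), and Havcr2, which encodes TIM-3, by 0.54 ± 0.12 (limma adjusted p = 0.0129). Pdcd1 read 5.11, 3.90 and 6.31 with PBS and 4.79, 3.18 and 1.32 with the antibody, a difference of -0.65 ± 0.29 within overlapping groups (limma adjusted p = 0.153). None of the 6 Fc gamma receptor genes, which bind antibody tails, passed the test; Fcgr4, the receptor with the widest gap, read 323, 345 and 262 against 877, 552 and 353 FPKM (0.85 ± 0.27, limma adjusted p = 0.0580).

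Genes of DNA replication rose together. Of 35 G1/S and replication genes, all tested, 24 rose and 0 fell, with a median of 0.54, where 6.00% of all genes tested rose. The groups did not overlap for 29, all higher with the antibody, where 18.2% of all genes tested were separated in this direction. The count of rises was 15 without PBS replicate 1. Mcm6, a subunit of the replicative helicase, read 20.9, 21.6 and 22.2 FPKM with PBS and 36.5, 34.3 and 41.3 with the antibody. The PBS libraries were close to each other, and the log2 difference of 0.76 ± 0.11 (limma adjusted p = 0.00280) held whichever library was left out. Mcm3, another helicase subunit, read 25.8, 23.8 and 25.6 against 37.9, 35.9 and 42.1 and rose by 0.60 ± 0.10 (limma adjusted p = 0.00533). E2f1, a transcription factor that drives S-phase genes, rose by 0.53 ± 0.07 (limma adjusted p = 0.00159), and Mcm10, an initiation factor, by 0.63 ± 0.10 (limma adjusted p = 0.00441).

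Of 31 G2/M genes, all tested, 13 rose and 0 fell, with a median of 0.52, and all 31 log2 differences were above 0. The count was 7 under total-read scaling. It was 2, 3 and 6 without PBS replicates 1, 2 and 3, and 25, 5 and 5 without anti-PD-L1 replicates 1, 2 and 3. Top2a, the topoisomerase that untangles chromosomes, read 17.0, 17.3 and 19.4 FPKM with PBS and 24.3, 28.7 and 43.7 with the antibody, highest in replicate 3, a rise of 0.77 ± 0.21 (limma adjusted p = 0.0375). Mki67, the proliferation marker Ki-67, read 17.6, 16.8 and 19.3 against 21.7, 27.0 and 39.1 and rose by 0.64 ± 0.19 (limma adjusted p = 0.0458). Both lost their calls in 5 of the 6 fits with 1 library left out, all but that without anti-PD-L1 replicate 1 (highest adjusted p 0.114 for Top2a and 0.125 for Mki67). Which cells of the fluid carried these transcripts cannot be read from bulk RNA. Krt8, a keratin of epithelial tumor cells, was also highest in anti-PD-L1 replicate 3, at 17.5, 16.9 and 17.3 FPKM with PBS and 20.0, 23.01 and 38.2 with the antibody (0.57 ± 0.22, limma adjusted p = 0.111). The other epithelial markers did not all follow Krt8. Of 8 listed, 6 were tested, 0 rose and 1 fell, with a median of -0.009, 3 differences above 0 and 3 below. Their mean log2 difference from PBS was -0.10 in anti-PD-L1 replicate 3. The part of epithelial tumor cells in the cell-cycle result was not tested.

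The same promoter windows were searched for the E2F site as TTTCCCGC or TTTGGCGC on either strand, bound by the factors that time S-phase transcription. It was in 7 of the 19 G1/S genes that rose and had a window, in 0 of 10 that were not called, and in 1.80% of all 27025 genes. None of the 10 G2/M genes that rose and had a window held it. The G1/S list was made of replication genes, so its share against all genes describes the list and not the antibody's effect. The 2 windows shown were picked as above, as those with the smallest p among G1/S genes that rose and held the site. They belong to the helicase subunits Mcm6 and Mcm3, and each carries 2 copies, in capitals.
Mcm6 promoter, chr1:128359656-128359955, minus strand: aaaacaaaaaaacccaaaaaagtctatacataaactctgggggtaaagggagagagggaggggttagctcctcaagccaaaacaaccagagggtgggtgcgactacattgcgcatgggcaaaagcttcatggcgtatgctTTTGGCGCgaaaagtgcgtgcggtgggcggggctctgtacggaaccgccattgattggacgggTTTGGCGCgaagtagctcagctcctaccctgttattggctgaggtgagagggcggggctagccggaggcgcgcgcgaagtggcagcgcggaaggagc
Mcm3 promoter, chr1:20820263-20820562, minus strand: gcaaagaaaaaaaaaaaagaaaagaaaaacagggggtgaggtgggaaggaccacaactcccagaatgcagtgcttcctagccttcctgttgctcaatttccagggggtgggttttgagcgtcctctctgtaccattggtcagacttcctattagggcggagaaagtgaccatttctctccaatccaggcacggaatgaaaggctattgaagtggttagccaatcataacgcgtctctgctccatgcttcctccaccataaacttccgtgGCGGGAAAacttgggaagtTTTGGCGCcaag

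Neutrophil genes had the lowest median of the lists examined. Of 23 neutrophil markers, 19 were tested, 14 fell and 0 rose, with a median of -1.97, and 16 had groups that did not overlap, where 16.5% of all genes tested were separated in this direction. The list summed to between 4181 and 6485 FPKM with PBS and between 984 and 1589 with the antibody. S100a9, a calcium-binding protein that makes up much of a neutrophil's cytosol, read 2183, 1766 and 2969 FPKM with PBS and 466, 636 and 372 with the antibody. The lowest PBS library was well above the highest antibody library, and S100a9 fell by 2.23 ± 0.46 on the log2 scale (limma adjusted p = 0.0116). Cxcr2, the receptor through which neutrophils follow CXC chemokines, read 142, 127 and 186 against 33.7, 40.3 and 31.0 and fell by 2.07 ± 0.38 (limma adjusted p = 0.00730). Csf3r, the receptor of the growth factor G-CSF, read 245, 203 and 301 against 62.0, 67.4 and 53.7 (-2.004 ± 0.31, limma adjusted p = 0.00342). Granule genes of neutrophil precursors were mixed: Elane stayed between 0.220 and 0.891 FPKM over the 6 libraries, and Prtn3 read 42.9, 34.7 and 46.8 FPKM with PBS and 44.6, 59.3 and 35.9 with the antibody and did not pass the test (0.15).

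Ligands of Cxcr2 were lower too. Cxcl3 read 84.2, 65.8 and 128 FPKM with PBS and 2.40, 15.2 and 10.6 with the antibody, a fall of 3.39 ± 0.49 on the log2 scale (limma adjusted p = 0.00264). Cxcl2 read 191, 124 and 292 against 25.7, 63.5 and 36.4 and fell by 2.26 ± 0.38 (limma adjusted p = 0.00520). Ppbp, the precursor of CXCL7 and a product of platelets and some myeloid cells, read 487, 450 and 571 against 10.7, 53.4 and 90.4 and had the largest fall of the genes named here, 3.69 ± 0.58 (limma adjusted p = 0.00398). Of 12 platelet markers, 3 were tested, Ppbp and Pf4 fell, and Gng11 differed by 0.30 without passing the test. The list summed to 1973 to 2105 FPKM with PBS and 777 to 1150 with the antibody, nearly all of it Ppbp and Pf4, while Gp1bb was at 0 in all 6 libraries and Itga2b and Gp9 stayed at or below 0.904 and 1.52 FPKM. The part of platelets in the result was not tested. Cxcl1, a further Cxcr2 ligand, read 14.8, 12.7 and 17.8 against 9.25, 28.6 and 25.6 and did not pass it (0.33 ± 0.43, limma adjusted p = 0.632). Of the 27 chemokine ligands listed, 23 were tested, 12 fell and only Cxcl9 and Cxcl10 rose, with a median of -0.71; with the 6 compared libraries alone 7 fell and 0 rose. Ccl17, among the 12, passed the FPKM filter through PBS alone and Cxcl9 through the antibody group alone, so their changes are a description. Monocyte attractants were among those that fell: Ccl12 read 195, 205 and 189 FPKM with PBS and 46.2, 90.9 and 101 with the antibody (-1.37 ± 0.24, limma adjusted p = 0.00600), and Ccl7 read 568, 542 and 589 against 123, 319 and 321 (-1.28 ± 0.32, limma adjusted p = 0.0256), the latter call being lost when any PBS library was left out (highest adjusted p 0.0820). Of 15 chemokine receptors, 11 were tested and 7 fell, namely Cxcr2, Ccr7, Ccr2, Cxcr5, Ccr6, Cxcr4 and Ccr1, with a median of -0.88 (5 fell without PBS replicate 3). Cxcr5 and Ccr6 were under 1 FPKM in every antibody library and passed the FPKM filter through PBS alone, so their falls are a description. Ccr1 lost its call in 5 of the 6 fits with 1 library left out, and Cxcr4 without PBS replicate 3.

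Some interleukin-1 genes fell. Of 19 interleukin-1 and inflammasome genes, 18 were tested, 6 fell and 0 rose, with a median of -0.13, so that the list as a whole lay near all genes. Il1b, the secreted cytokine, read 183, 107 and 311 FPKM with PBS and 47.6, 64.4 and 63.9 with the antibody, a fall of 1.64 ± 0.35 (limma adjusted p = 0.0137). Il1r2, a decoy receptor abundant on neutrophils, read 304, 272 and 372 against 64.7, 72.5 and 56.5 and fell by 2.27 ± 0.40 (limma adjusted p = 0.00588). Il1rap, the shared co-receptor, read 15.0, 14.3 and 18.03 against 4.86, 6.38 and 6.21 and fell by 1.30 ± 0.11 (limma adjusted p = 0.000775). The inflammasome sensors Nlrp3 and Mefv fell by 1.03 ± 0.13 (limma adjusted p = 0.00149) and 1.44 ± 0.19 (limma adjusted p = 0.00154), and Casp1, which cleaves the cytokine, differed by 0.55 without passing the test. The neutrophil markers were lower in the same libraries, and their part in the interleukin-1 and chemokine results was not tested.

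**Figure D2:**
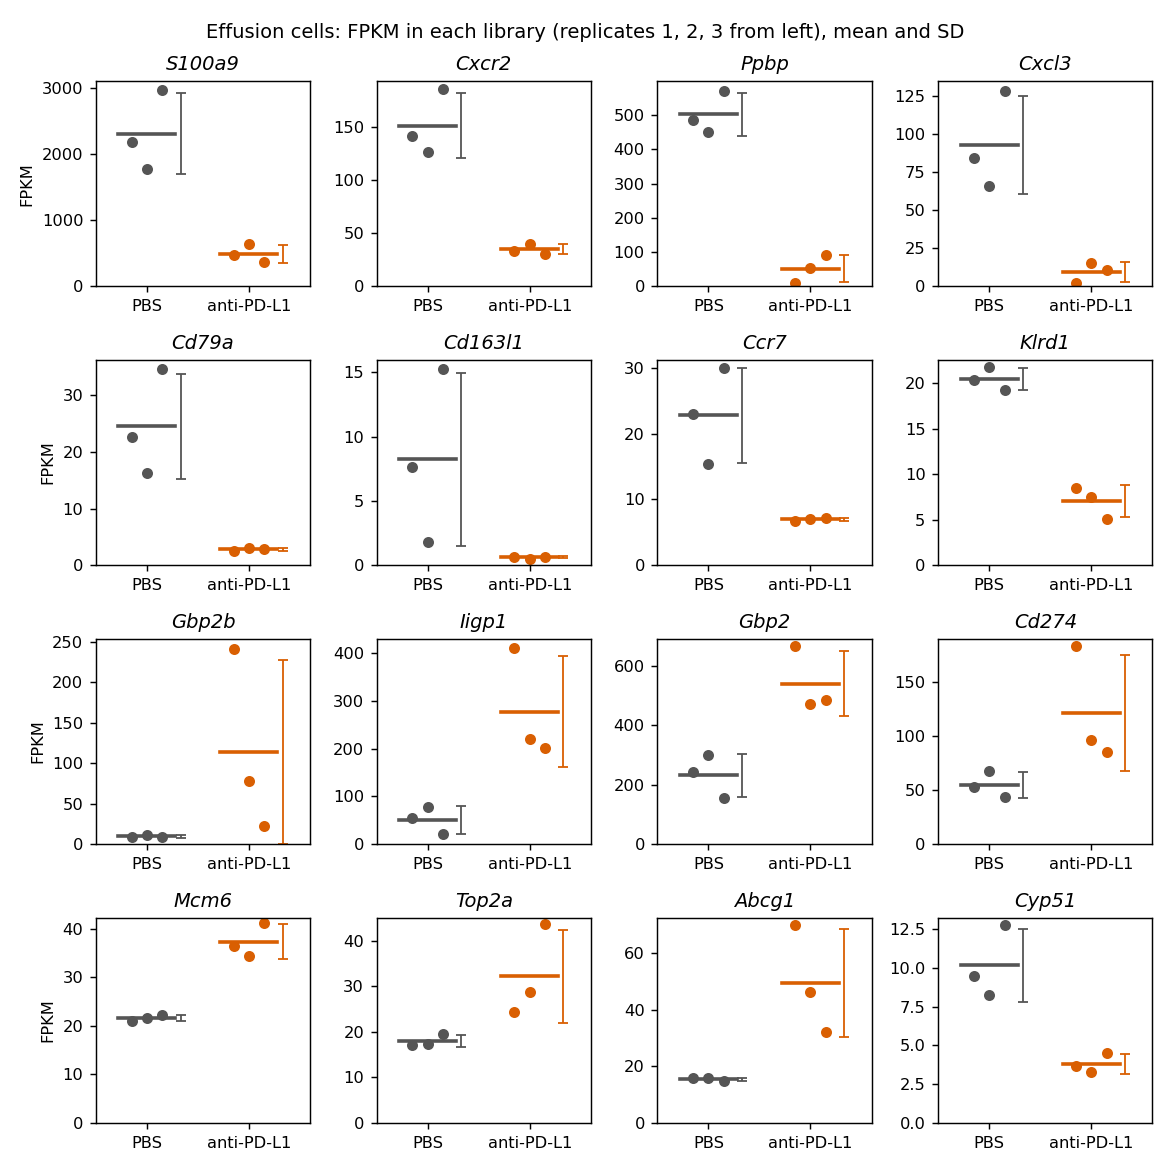
FPKM of 16 genes in each effusion library, PBS in grey and anti-PD-L1 in orange, with replicates 1, 2 and 3 from left to right, the mean as a bar and the SD beside it (n = 3). The groups do not overlap for any gene shown; Gbp2b and Iigp1 are highest in anti-PD-L1 replicate 1 and Top2a in replicate 3, while PBS replicate 3 is the highest library for S100a9, Cxcr2, Ppbp, Cxcl3, Cd79a and Cd163l1.

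Lymphocyte genes were lower in treated effusions, B cell genes most. Of 16 B cell markers, 12 were tested, 10 fell and 0 rose, with a median of -1.78 (6 fell without PBS replicate 3), and the list summed to 65.1 to 129 FPKM with PBS and 15.5 to 17.2 with the antibody. Cd79a, a signalling chain of the B cell receptor, read 22.6, 16.2 and 34.6 FPKM with PBS and 2.58, 3.01 and 2.82 with the antibody. The antibody libraries lay close together and far below PBS, and Cd79a fell by 2.68 ± 0.57 on the log2 scale (limma adjusted p = 0.0126; 0.0554 without PBS replicate 3). Cd22, an inhibitory B cell lectin, read 7.5002, 5.77 and 9.63 against 1.55, 1.10 and 1.36 and fell by 1.87 ± 0.16 (limma adjusted p = 0.000775). The B cell kinase Blk fell by 2.02 ± 0.27 (limma adjusted p = 0.00171) and Cxcr5, which guides B cells to follicles, by 1.12 ± 0.14 (limma adjusted p = 0.00146), both under 1 FPKM in every antibody library and so past the FPKM filter through PBS alone. Pax5, among the 10 markers that fell, read 0.367, 0.366 and 0.547 FPKM with the antibody and passed the filter in the same way. The fall of these genes is a description.

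Of 18 T cell markers, 14 were tested, 6 fell and 0 rose, with a median of -0.70, and the count ran from 1 without PBS replicate 3 to 9 without anti-PD-L1 replicate 1, with 2 and 3 without PBS replicates 1 and 2 and 3 without anti-PD-L1 replicate 2 or 3. Cd3e, a chain of the T cell receptor complex, read 1.61, 1.76 and 2.15 FPKM with PBS and 1.29, 0.678 and 0.360 with the antibody (-0.71 ± 0.18, limma adjusted p = 0.0282), and Cd4 read 1.78, 1.67 and 1.66 against 0.448, 0.552 and 1.06 (-0.70 ± 0.19, limma adjusted p = 0.0343). Both lost their calls in 5 of the 6 fits with 1 library left out (highest adjusted p 0.102 for Cd3e and 0.106 for Cd4), Cd3e keeping it only without anti-PD-L1 replicate 1 and Cd4 only without anti-PD-L1 replicate 3. Cd8a, the marker of cytotoxic T cells, read 3.36, 3.90 and 2.31 against 5.09, 2.23 and 0.660, overlapping groups with the highest and the lowest value both under the antibody (-0.37 ± 0.42, limma adjusted p = 0.577). All 4 tested of 10 regulatory T cell markers fell, Ctla4, Il2ra, Tnfrsf4 and Tnfrsf18, Il2ra having passed the FPKM filter through PBS alone (2 without PBS replicate 1 or 3 or anti-PD-L1 replicate 1 or 2). Ctla4, an inhibitory receptor, read 5.70, 5.44 and 7.34 against 2.23, 2.29 and 1.68 (-1.22 ± 0.26, limma adjusted p = 0.0139; 0.0609 without PBS replicate 3), and Foxp3, which is on the X chromosome and was not tested, read 0.907, 1.00 and 0.961 against 0.634, 0.643 and 0.675. Of 9 genes of gamma-delta and IL-17-producing T cells, 3 were tested and all fell, Cd163l1, Tcrg-C1 and Ccr6 (1 without PBS replicate 1). All 3 were under 1 FPKM in every antibody library and passed the FPKM filter through PBS alone, as did 180 of the genes tested, so their count is a description. Cd163l1, a scavenger receptor of such cells, read 7.62, 1.82 and 15.2 FPKM with PBS and 0.676, 0.508 and 0.674 with the antibody, and Tcrg-C1, a gamma chain constant region, read 5.48, 1.06 and 10.5 against 0.939, 0.584 and 0.477. The PBS libraries differed among themselves for both, lowest in replicate 2, and their log2 differences were -2.18 ± 0.48 (limma adjusted p = 0.0149; 0.0589 without PBS replicate 1) and -1.69 ± 0.49 (limma adjusted p = 0.0438), the latter called in only 1 of the 6 fits with a library left out, that without PBS replicate 2.

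NK cell genes fell in part. Of 15 NK markers, 14 were tested, 8 fell and 0 rose, with a median of -0.73 (3 fell without any 1 of the PBS libraries or without anti-PD-L1 replicate 3). Eomes, among the 8, read 0.696, 0.568 and 0.295 FPKM with the antibody and passed the FPKM filter through PBS alone, so its fall is a description. Klrd1, a chain of NK receptors for MHC class I, read 20.3, 21.7 and 19.3 FPKM with PBS and 8.52, 7.48 and 5.08 with the antibody, a fall of 1.44 ± 0.22 (limma adjusted p = 0.00342). Ncr1, which encodes NKp46, read 2.99, 3.31 and 3.00 against 1.03, 1.36 and 1.11 and fell by 0.92 ± 0.15 (limma adjusted p = 0.00422). Of 12 cytotoxic effector genes, 8 were tested, with a median of -0.84, and 3 fell, Gzma, Ccl5 and Ctsw. None of the 3 kept its call when any 1 PBS library or anti-PD-L1 replicate 3 was left out. Gzmb, the granule protease of killer cells, read 7.79, 7.97 and 7.12 FPKM with PBS and 20.0, 8.92 and 1.74 with the antibody (-0.05 ± 0.56, limma adjusted p = 0.958), so the antibody libraries spread on both sides of a narrow PBS group.

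Of 8 markers of type 2 conventional dendritic cells, 7 were tested and 5 fell, with a median of -1.11, and 5 fell in each fit with 1 library left out. Flt3, the receptor of the cytokine that dendritic cells depend on, read 5.90, 5.69 and 6.18 FPKM against 2.33, 1.54 and 2.20 and fell by 1.20 ± 0.11 (limma adjusted p = 0.000775). Mgl2, a lectin of these cells and of alternatively activated macrophages, read 7.73, 5.96 and 12.9 against 0.449, 2.25 and 2.10 and fell by 1.95 ± 0.32 (limma adjusted p = 0.00451). Of 9 markers of mature migratory dendritic cells, 7 were tested and 6 fell, with a median of -1.05. Ccr7, the receptor that takes them to lymph nodes, read 22.9, 15.4 and 30.0 against 6.80, 6.96 and 7.20 and fell by 1.53 ± 0.21 (limma adjusted p = 0.00197), and the chemokine Ccl17 read 3.20, 3.05 and 3.20 against 0.422, 0.787 and 0.286, passing the FPKM filter through PBS alone (log2 difference -1.48 ± 0.13, limma adjusted p = 0.000775). Markers of type 1 conventional dendritic cells lay at a median of -0.05, with 2 of 8 lower, Itgae, which lymphocytes also express, and Wdfy4, and those of plasmacytoid dendritic cells at -0.31, with 2 of 4 lower.

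Macrophage genes changed little as a set. Of 15 macrophage markers, all tested, 2 fell, Cd14 among them, and 0 rose, with a median of 0.13, where 8.23% of all genes tested fell. Without anti-PD-L1 replicate 1, 4 fell, and without anti-PD-L1 replicate 3, 4 rose. The complement gene C1qa shows the spread behind this, at 917, 953 and 770 FPKM with PBS and 2486, 1393 and 810 with the antibody (0.69 ± 0.33, limma adjusted p = 0.181). Of 19 markers of resident macrophages of serous cavities, 18 were tested and 0 passed the threshold in either direction, where 14.2% of all genes did. At an unadjusted p under 0.05 the whole comparison held 3833 genes. Of 14 monocyte markers, 5 fell and 0 rose, with a median of -0.53 (2 to 3 fell without any 1 PBS library, and 3 without anti-PD-L1 replicate 1). Ccr2, the receptor that brings monocytes into tissue, read 115, 120 and 115 FPKM with PBS and 47.0, 52.3 and 58.6 with the antibody, a fall of 1.14 ± 0.13 (limma adjusted p = 0.00124), while Chil3 read 759, 885 and 687 against 258, 729 and 508 (-0.76 ± 0.42, limma adjusted p = 0.245). Of 12 tested genes of alternative macrophage activation, 5 fell, Mgl2, Retnla, Ear2, Ccl24 and Pdcd1lg2 (3 without any 1 PBS library, or without anti-PD-L1 replicate 1 or 3). Arg1, the arginase of such macrophages and one of the most abundant transcripts here, read 2818, 2986 and 2526 against 3037, 3353 and 2219 FPKM and differed by 0.03 ± 0.19 (limma adjusted p = 0.936), and the mannose receptor Mrc1 by -0.38 ± 0.13 (limma adjusted p = 0.0801).

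**Figure D3:**
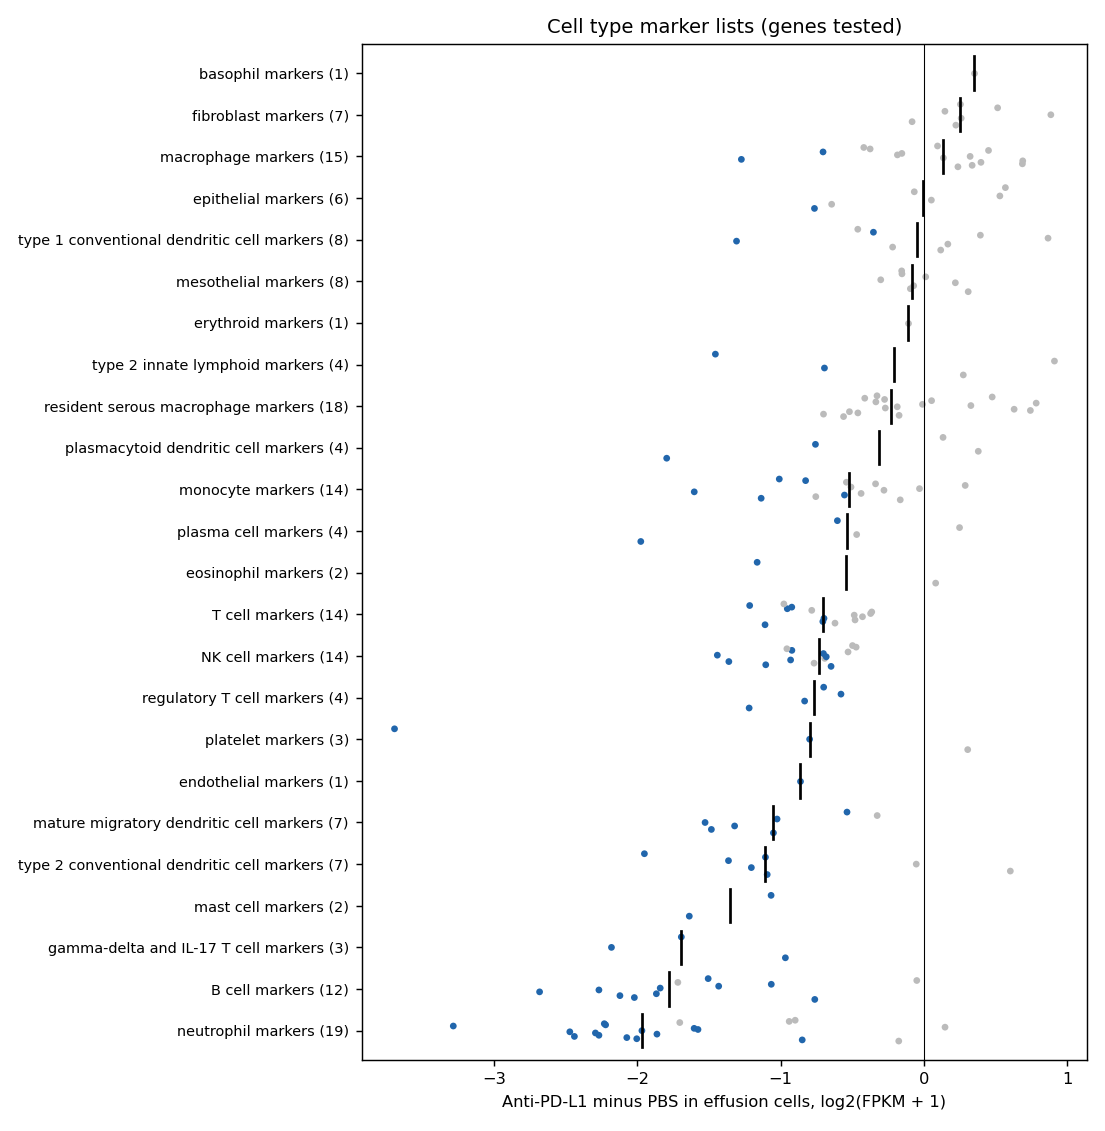
Anti-PD-L1 minus PBS log2 differences of the tested members of each cell type marker list, 1 point per gene, with the number tested in brackets and the list median as a black bar. Blue points fell at an adjusted p under 0.05 and grey points did not pass; no member of these lists rose, and neutrophil and B cell markers have medians of -1.97 and -1.78, against 0.13 for macrophage markers.

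Genes of immediate response to stimulation were lower. Of 15 immediate early genes, 13 were tested, 7 fell and 0 rose, with a median of -0.67 (3 fell without PBS replicate 1 or 3). Egr1, a transcription factor induced within minutes of a stimulus, read 17.6, 12.8 and 25.5 FPKM with PBS and 4.63, 7.75 and 9.39 with the antibody, a fall of 1.25 ± 0.24 (limma adjusted p = 0.00871). Junb, a subunit of the AP-1 factor, read 261, 203 and 357 against 119, 149 and 115 and fell by 1.07 ± 0.20 (limma adjusted p = 0.00748). PBS replicate 3 was the highest library for both. Of 13 NF-kB feedback genes and targets, 12 were tested and 5 fell, Traf1, Tnfaip3, Relb, Bcl3 and Birc3, with a median of -0.38; the count was 2 without PBS replicate 1, PBS replicate 3 or anti-PD-L1 replicate 3 and 3 without anti-PD-L1 replicate 2. Traf1, an adaptor of TNF receptors, read 3.90, 3.34 and 4.53 against 1.43, 1.61 and 1.39 and fell by 0.98 ± 0.10 (limma adjusted p = 0.00120).

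Cholesterol synthesis genes fell in part. Of 18 sterol synthesis genes, 17 were tested, 8 fell and 0 rose, with a median of -0.31 (4 fell without PBS replicate 3 and 5 without anti-PD-L1 replicate 1 or 2). Cyp51, the lanosterol demethylase, read 9.46, 8.23 and 12.8 FPKM with PBS and 3.65, 3.25 and 4.48 with the antibody, a fall of 1.20 ± 0.14 (limma adjusted p = 0.00140). Srebf2, the transcription factor that controls the pathway, read 23.8, 21.8 and 25.2 against 12.5, 13.6 and 15.6 and fell by 0.72 ± 0.09 (limma adjusted p = 0.00149). Of genes of lipid-laden macrophages, 13 were tested, Lpl and Cd36 rose and Fabp5 fell; the Fabp5 call was lost in all fits with 1 library left out except that without anti-PD-L1 replicate 1. Cd36, a fatty acid and lipoprotein receptor, read 77.0, 90.8 and 62.2 FPKM with PBS and 236, 206 and 159 with the antibody, a rise of 1.37 ± 0.24 (limma adjusted p = 0.00600). Lpl, lipoprotein lipase, read 11.5, 12.6 and 7.47 against 74.2, 36.7 and 18.6 and rose by 1.75 ± 0.41 (limma adjusted p = 0.0187), a call lost without PBS replicate 1 or 3 (highest adjusted p 0.0759).

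Other lists were mixed. Of 22 glycolysis and hypoxia genes, all tested, 4 fell and 1 rose, with a median of -0.14, where 8.23% of all genes tested fell. The count of falls was 0 without PBS replicate 1 or 3, 1 without anti-PD-L1 replicate 1 or 3 and 2 without PBS replicate 2. Vegfa, the vascular permeability factor that drives effusions, read 17.3, 14.1 and 20.3 FPKM with PBS and 8.98, 18.1 and 17.6 with the antibody (-0.24 ± 0.23, limma adjusted p = 0.495). Thbs1, an inhibitor of angiogenesis made by platelets and macrophages, read 1240, 1047 and 1579 against 141, 697 and 691 and fell by 1.63 ± 0.49 (limma adjusted p = 0.0499), a call lost when any PBS library was left out (highest adjusted p 0.147). None of 24 nuclear respiratory chain genes, 19 ribosome biogenesis genes, 11 complement genes, 11 iron-handling genes and 10 eicosanoid synthesis genes tested passed the threshold in the fit with all libraries; without anti-PD-L1 replicate 3, 4 complement, 3 respiratory chain and 2 iron-handling genes rose. Rdh12, a retinol dehydrogenase, was the retinoid gene with the largest change, at 26.2, 18.5 and 33.9 FPKM against 2.39, 3.77 and 3.05, a fall of 2.71 ± 0.28 (limma adjusted p = 0.00120) that held whichever library was left out.

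**Figure D4:**
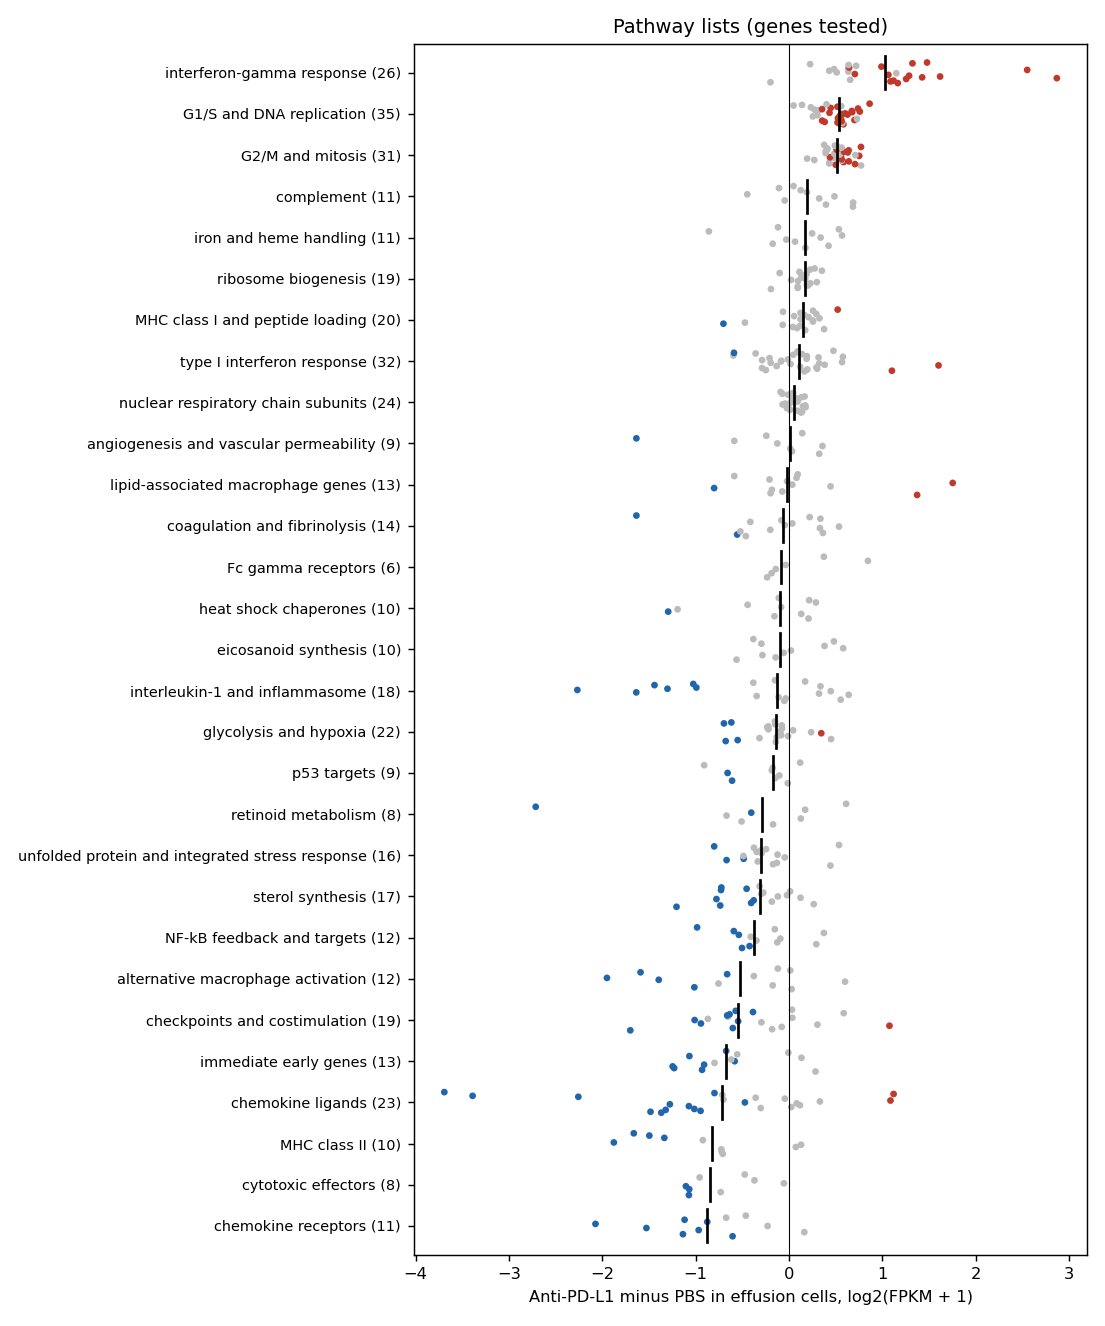
Anti-PD-L1 minus PBS log2 differences of the tested members of each pathway list, 1 point per gene, with the number tested in brackets and the list median as a black bar. Red points rose, blue points fell and grey points did not pass. The interferon-gamma response (median 1.03), G1/S (0.54) and G2/M (0.52) lists lie to the right. Chemokine receptors (-0.88), cytotoxic effectors (-0.84) and MHC class II (-0.82) lie to the left.

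The 2 further fluid treatments were set against the same 3 PBS libraries, so their differences share those controls with the antibody's, and the values are only placed side by side. In the LNP-CDN libraries Ddx3y was at most 0.0283 FPKM and in those given both at most 0.0111, near the PBS values. The antibody-alone group thus differed from the other fluid groups in this marker of sex. Treatment and sex cannot be told apart where that group is set against the others. Cd274 stood 1.08 above PBS on the log2 scale with the antibody, 1.12 with LNP-CDN and 1.13 with both. Ifit2 stood 1.603 above PBS with the antibody, 4.32 with LNP-CDN and 4.37 with both. Mean Gbp2b was 9.45 ± 1.64 FPKM (SD, n = 3) with PBS and 114 ± 114 with the antibody, against 19.0 with LNP-CDN and 26.7 with both. The interferon-gamma list as a whole lay above the PBS mean by 1.56, 0.80 and 0.69 in the antibody libraries, by 1.16, 1.54 and 1.44 with LNP-CDN and by 1.68, 1.37 and 1.44 with both, as the mean log2 difference over its members. The log2 difference of Cd36 from PBS was 1.37 with the antibody alone, -0.33 with LNP-CDN and -0.51 with both. Mmp8, a neutrophil collagenase, fell with the antibody from 75.9, 78.1 and 74.6 to 10.6, 13.7 and 14.8 FPKM, and averaged 93.9 with LNP-CDN and 155 with both. The neutrophil list as a whole lay below the PBS mean in all of these libraries, at -1.84, -1.38 and -1.95 with the antibody, -1.23, -0.24 and -1.54 with LNP-CDN and -0.98, -0.77 and -1.60 with both.

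Whether the anti-PD-L1 minus PBS difference was unlike in effusion cells and pleural tumors was tested gene by gene, as the fluid difference minus the tumor difference in a fit of all 24 libraries. It differed for 852 of 12187 genes (6.99%), 288 with a higher and 564 with a lower fluid difference, and 777 of the 1733 genes that changed in fluid and could be tested were among them. The count was 557 and 555 without fluid PBS replicates 1 and 3 and 532 without tumor PBS replicate 2. Ddx3y was also present in the tumors, at 3.44, 3.28 and 3.27 FPKM with the antibody and at 3.55 in PBS replicate 1. It was at no more than 0.0205 in PBS tumor replicates 2 and 3. This marker of sex was thus uneven between the treatments in both tissues, and treatment and sex cannot be told apart in the fluid minus tumor difference. Of the 852 genes, 223 were under 1 FPKM in all 6 tumors compared, where a difference on the log2(FPKM + 1) scale can only be small, so that the test restates the fluid difference; Cd22, at 0.178 and 0.116 FPKM in PBS and treated tumors, was one of them. Il1rap was expressed in tumors, at 7.09 ± 0.477 FPKM with PBS and 6.96 ± 0.784 with the antibody, and the fluid difference was lower by 1.27 ± 0.14 (limma adjusted p = 9.68e-05). Mcm6 averaged 61.7 ± 5.45 FPKM in PBS tumors and 65.4 ± 1.00 in treated ones, and the fluid difference was higher by 0.67 ± 0.13 (limma adjusted p = 0.00455). For interferon-gamma-induced genes no such difference was called among those named here: Iigp1 stood 1.05 and Gbp3 0.88 above PBS in tumors on the log2 scale, and the gaps between fluid and tumor were 1.504 ± 0.81 (limma adjusted p = 0.277) and 0.55 ± 0.57 (limma adjusted p = 0.605). For S100a9, which averaged 78.1 ± 17.9 FPKM in PBS tumors and 35.0 ± 5.28 in treated ones, the gap was -1.11 ± 0.53 (limma adjusted p = 0.221).

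**Figure D5:**
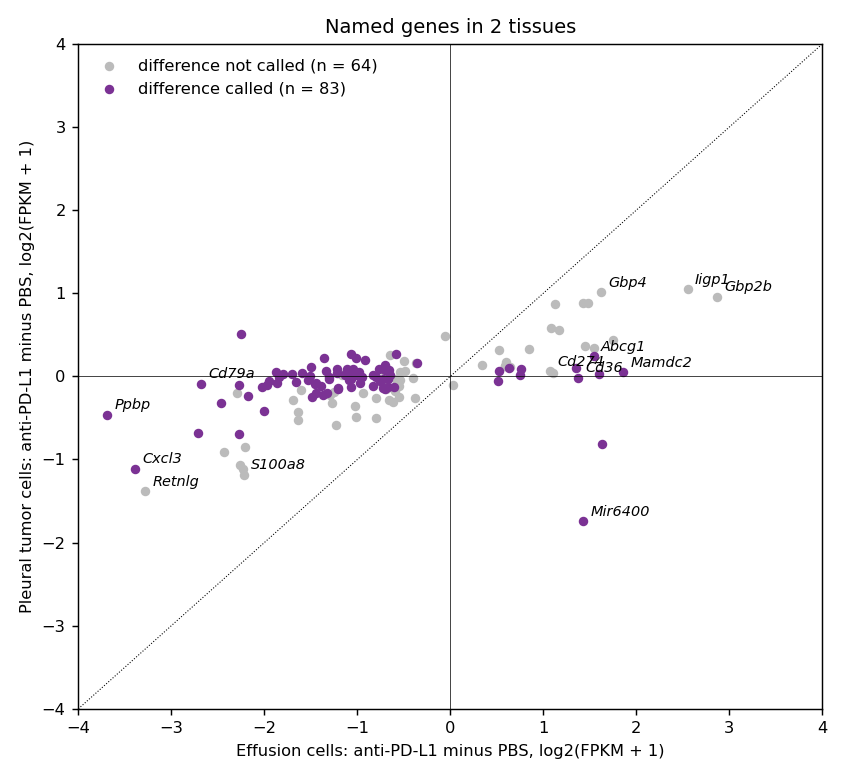
Anti-PD-L1 minus PBS log2 difference in pleural tumors against that in effusion cells for 147 genes named by the rule, with the dotted line marking equal differences. The difference between tissues was called for 83 genes and not for 64; Ppbp, Cxcl3 and Retnlg lie farthest to the left, and Iigp1 and Gbp2b farthest to the right, each nearer to 0 on the tumor axis than on the effusion axis.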

How the data were processed

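RNA was measured by poly-A RNA-seq of effusion cell pellets (TRIzol, NEBNext Ultra kit, per the labels' protocols), and only FPKM values made by the authors were used, from a deposited table of 54505 genes and 24 libraries. Tools named by the authors, per the submitters' processing notes, are DESeq2, featureCounts, STAR and fastp, with mm9 as the build; roles and parameters are not given in the sources used here. The table's coordinates match GRCm38 for 53560 of the 54469 gene IDs found in GENCODE M21, and these are printed. No strand setting is stated, and reads of a gene and of one that overlaps it or runs antisense to it cannot be separated. Gene names stored as dates (27) were matched by ID.

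FPKM steps gave whole reads within 0.01 for at least 99.9% of values in each library. Of 12601 genes passing the FPKM filter, 370 on X or Y, 27 mitochondrial and 5 on scaffolds were left out, and 7 further genes whose values were not whole reads (Col4a1, Nos2, Pdgfrb, Cdh5, Il12a, Angpt1 and Ifnb1) were not tested. Values of log2(FPKM + 1) were fitted with limma 3.58.1 in R 4.3.3 with a mean-variance trend over all 12 fluid libraries (4 groups of 3), whose shared spread gives each SE. Tests were two-sided, with Benjamini-Hochberg adjustment over all genes tested and a threshold of 0.05; fold changes on this scale understate those of low genes. An exact permutation test of 3 against 3 cannot go below 0.1. Tables and plots were made in Python 3.11.15 with pandas 2.3.3 and matplotlib 3.10.9, and the fit was tested on simulated data.

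The comparison, its members and the 53 gene lists were chosen with earlier results of these data known. Genes were named by a rule of up to 15 with the largest rise and fall, up to 4 called members of each list, and a fixed core set; other genes named complete a list's account and were chosen after their values were seen. Alternatives were another pseudocount (0.1), no filter, a filter over the 12 libraries, the 6 compared libraries alone, total-read and upper-quartile scaling, limma-voom on the recovered reads, library weights, a replicate block, X and Y kept, and each library left out. Same-numbered replicates of the 2 groups correlated by 0.02, -0.13 and 0.15 in their deviations from the group means.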

Additional observations from a re-analysis of the deposited data

Results flagged for a closer look

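The anti-PD-L1 minus PBS difference was unlike in effusion cells and pleural tumors for 852 genes by the test of the difference itself (limma, adjusted over 12187 genes). Treatment and sex cannot be told apart in this contrast. The 6 with the lowest adjusted p among the genes examined follow, each as the fluid difference minus the tumor difference on the log2 scale. For Cd22 it was -1.79 ± 0.19 (limma adjusted p = 9.68e-05), for Il1rap -1.27 ± 0.14 (9.68e-05) and for Traf1 -1.03 ± 0.13 (0.000391). Cd22, H2-Eb2 and Cxcr5 were nearly absent from the tumors, so for these genes the value restates the fluid difference. For H2-Eb2, an MHC class II chain at 0.0399 FPKM in PBS tumors and 0.0863 in treated ones, it was -1.40 ± 0.19 (limma adjusted p = 0.000521), and for Cxcr5, at 0.0618 and 0.0889 FPKM in the tumors, -1.16 ± 0.16 (limma adjusted p = 0.000692). For the microRNA gene Mir6400 it was 3.18 ± 0.40 (limma adjusted p = 0.000391). This gene is 92 bases long, and the value rests on 0, 1 and 0 reads in PBS fluid, 3, 3 and 4 in treated fluid, 9, 3 and 3 in PBS tumors and 0, 0 and 0 in treated tumors. Mir6400 passed the FPKM filter through the antibody group alone and Cxcr5 through PBS alone, so both values are a description.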

How the results depend on the processing

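Of the 1735 genes called with the antibody in fluid, 731 higher and 1004 lower, the count was 1008 with the 6 compared libraries alone (300 higher) and 5866 with library weights (3379 higher, 2487 lower), and 429 rose with no filter; the cause was not tested. Leaving out 1 library gave 771 to 1818 called, 233 to 974 higher and 509 to 995 lower. With a replicate block 1632 were called, 690 higher and 942 lower; the replicates share only a number, and 10 of the genes named by the rule lost their call under the block. The 852 genes that differed between tissues were 550 with a pseudocount of 0.1, 541 with the compared libraries alone, 516 with limma-voom and 4338 with library weights, 767 with the block, and 532 to 1090 with 1 library left out. Of genes whose difference was not called, the sign turned for Arg1 (-0.0097 under total-read scaling), Gzmb (0.16 with weights) and Vegfa (0.0030 with weights), and with 1 library left out for Arg1 (-0.094 to 0.20), Gzmb (-0.72 to 0.75), Vegfa (-0.41 to 0.064), Prtn3 (-0.039 to 0.32) and Cd8a (-0.84 to 0.10). With the 6 compared libraries alone, 4 G2/M genes rose, and the genes that fell were 4 for NK markers, immediate early genes and sterol synthesis alike, 3 for NF-kB, 1 for regulatory T cell, gamma-delta and glycolysis genes alike, and 0 for cytotoxic effectors. With 3 libraries a group and treatment confounded with sex, calls near the threshold depend on single libraries, and genes of few reads, such as lymphocyte receptors near 1 FPKM, are measured least precisely.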

Other observations

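Genes of lipid export and targets of the liver X receptor, listed after their values were seen, were examined beside the sterol synthesis genes. Of 16 tested, 5 rose and 0 fell, with a median of 0.47; 2 rose without PBS replicate 1 or 3, 3 without PBS replicate 2 and 9 without anti-PD-L1 replicate 3. Abcg1, a transporter that moves cholesterol out of macrophages, read 15.7, 15.8 and 14.8 FPKM with PBS and 69.8, 46.2 and 32.1 with the antibody, a rise of 1.54 ± 0.22 (limma adjusted p = 0.00234). Ch25h, which makes 25-hydroxycholesterol, rose from 2.34, 1.598 and 1.13 to 7.12, 7.39 and 4.46 (1.44 ± 0.34, limma adjusted p = 0.0192), a call lost without PBS replicate 2, PBS replicate 3 or anti-PD-L1 replicate 2. Lpl, Pltp and Rxra were the other genes of this list that rose, Pltp losing its call without any 1 PBS library and Rxra without PBS replicate 1, and the transporter Abca1 differed by 0.65 ± 0.28 (limma adjusted p = 0.146).

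Antigen receptor constant regions, also listed after their values were seen, were lower for 8 of 11 tested, with a median of -1.69. The count was 3 and 2 without PBS replicates 1 and 3, and 4 and 5 without anti-PD-L1 replicates 2 and 3. Iglc1 and Tcrg-C1, among the 8, were under 1 FPKM in every antibody library and passed the FPKM filter through PBS alone, so the count is a description. Ighm, the heavy chain of IgM, read 86.7, 64.3 and 117 FPKM with PBS and 21.0, 14.5 and 16.0 with the antibody, a fall of 2.29 ± 0.36 on the log2 scale (limma adjusted p = 0.00380). Trbc1, a T cell receptor beta chain, read 13.3, 12.7 and 14.4 against 6.85, 4.86 and 2.75 and fell by 1.38 ± 0.30 (limma adjusted p = 0.0146; 0.0555 without PBS replicate 3). Among transcription factors of the deposited annotation, 40 of 700 tested rose and 64 fell, shares close to the 6.00% and 8.23% over all genes tested. Mxd1, an antagonist of Myc-Max pairing, read 71.0, 57.6 and 98.9 FPKM with PBS and 21.3, 26.5 and 23.4 with the antibody and fell by 1.604 ± 0.25 (limma adjusted p = 0.00407), and Nfil3 fell by 1.35 ± 0.17 (limma adjusted p = 0.00149).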
